A study of Bos taurus with 12 samples.

Results

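The genes that took the most reads in bovine caruncular endometrium were 189 of the 27270 Ensembl genes in the count table. They were chosen by one rule, a mean raw count of 100 or more over the 12 libraries, so their high level is a description and carries no test. RNA-Seq was done on caruncles, the raised areas of the uterine lining, from Angus heifers aged 2 to 3 years that grazed pasture and whose estrous cycles were synchronized with 2 injections of prostaglandin F2 alpha. The pregnant group (P) held 4 heifers with a conceptus in the uterus on Day 15 to 17 of gestation. The non-pregnant group (NP) held 4 heifers in which no conceptus was found, and the cyclic group (C) held 4 heifers that were not bred. Several caruncles were taken from each heifer and each library came from a separate heifer. Libraries are named here by group and the number in the sample title (C3, NP72, P73), used as the heifer number. The source name in the labels is uterus, the tissue field of the labels holds the group, and the study's methods specify caruncles. The day of the cycle of the other groups is not given in the sources used here. Titles of the cyclic samples also carry a separate run of numbers, and the labels do not say what the numbers stand for. Breeding cannot be told apart from other differences between that group and the bred heifers.

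The ruminant endometrium is divided into caruncles, which lack glands and become the maternal side of the placenta, and the glandular tissue between them. Around the time of maternal recognition the elongating conceptus secretes interferon tau, which keeps the corpus luteum and its progesterone in place and acts directly on the endometrium. In poly(A) RNA-Seq a small set of transcripts commonly takes a large part of the reads. Since the shares of a library sum to a fixed total, a gene that takes more of them leaves less for every other gene. The count table gives Ensembl identifiers alone and the reference table at hand paired none of them with a symbol. No member is therefore assigned a function, markers of caruncular stroma, epithelium or conceptus could not be checked, and members are named by their rank of mean count. Counts were not divided by gene length, so a rank says how many reads a gene took and not how many transcripts it had.

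The libraries summed to between 95618 and 160862 gene counts, with means of 117827 ± 5362 (SD, n = 4) in C, 126946 ± 25034 in NP and 124982 ± 23164 in P. These totals are a small part of the reads that the study's text describes per library. Whether the table is a subset or was down-sampled is not given in the sources used here, so the values below hold for the table as deposited. At this depth 1 count stood for 6.70 to 15 CPM, the count scaled to a common library size by the trimmed mean of M-values (TMM) over the genes tested. Of the 27270 genes, 15896 had a count in any library and 1606 were abundant enough to be tested, among them all 189 of the most abundant genes. Within groups the most alike pair of libraries had a chi-square of 3.18 per degree of freedom, where counting error alone gives about 1. No library was therefore counted as a duplicate of another in its group. Pairs across groups were not checked in this way.

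Several libraries stood apart from their labels over the 189 genes. The profile of NP74 had a mean Pearson r of log2 CPM of 0.880 with the P libraries and 0.657 with the other NP libraries, and its nearest library was P78 (r = 0.947). The profile of P76 had a mean r of 0.843 with the C libraries against 0.777 with the other P libraries, and its nearest library was C3 (r = 0.866). The profile of C5 had a mean r of 0.828 with the NP libraries against 0.769 with its own group, and was nearest to NP75 (r = 0.912). The profile of NP77 was also closer to the C libraries (mean r of 0.841) than to the other NP libraries (0.737). These values are a description over 189 genes of 12 libraries, with no test. Libraries C3, C4 and C6 formed the tightest set, with C3 and C6 at r = 0.951. In NP74, 42 of the 189 genes (22.2%) lay over 2-fold from the mean of the other NP libraries, and in C5 33 genes (17.5%) lay that far from the other C libraries. The other 10 libraries had between 4 and 24 such genes. Results that rest on these libraries are given with and without them, and what sets them apart was not tested.

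**Figure D1:**
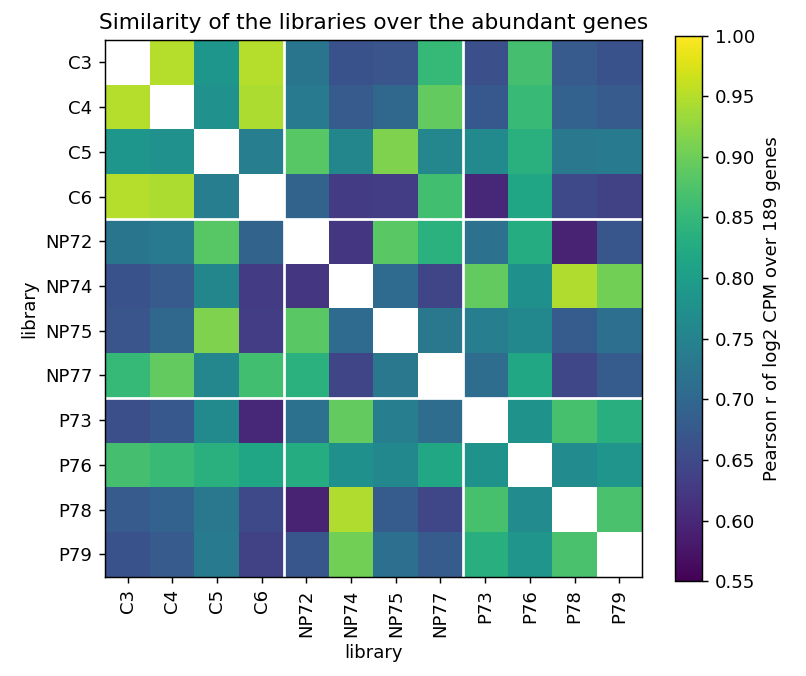
Pearson r of log2 TMM-normalized CPM over the 189 most abundant genes for each pair of the 12 libraries, ordered by group along both axes (C cyclic, NP non-pregnant, P pregnant), with white lines between groups and a blank diagonal. NP74 is bright against P78 (0.947) and P79 (0.903), and P76 is brighter against the C libraries than against the other P libraries.

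At the threshold the mean counts formed a continuous series. The last 3 genes inside had mean counts of 100.5, 100.417 and 100.167, with ranges over libraries of 31 to 192, 29 to 347 and 15 to 302. The first 3 genes outside had means of 99.8333, 99.0833 and 97.75, with ranges of 36 to 134, 50 to 141 and 78 to 124. A mean of 100 or more was met in all 3 groups by 143 of the 189 genes, in exactly 2 groups by 36 and in exactly 1 group by 10. In every single library 81 genes reached 100 counts, and 170 still had a mean of 100 or more when their highest library was left out. The remaining 19 fell under 100, which a gene just above the threshold can do without 1 library standing far apart.

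The 189 genes took 55.2% of all gene counts on average, and between 49.2% and 60.1% of a library. Their share was 55.5%, 53.4%, 56.2% and 55.3% in C3, C4, C5 and C6. The share was 51.1%, 60.1%, 57.0% and 49.2% in NP72, NP74, NP75 and NP77. It was 53.1%, 54.7%, 57.4% and 59.7% in P73, P76, P78 and P79. The group means of 55.1% ± 1.18 in C, 54.4% ± 5.09 in NP and 56.2% ± 2.93 in P (SD, n = 4 each) lay within one another's spread, and the 4 NP libraries held both the lowest and the highest share. A small number of genes carried a large part of it. The first gene alone took 6.15% of counts on average, the first 3 took 13.6%, the first 10 took 23.4%, the first 50 took 37.2% and the first 100 took 45.9%. Between 73 genes (P79) and 185 genes (NP77) were needed to reach 50% of a library's counts.

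The first 10 genes took 21.4% ± 2.16 of counts in C, 23.0% ± 5.10 in NP and 25.8% ± 4.16 in P. Libraries of the groups overlapped, since C5 was at 24.7% and P73 at 21.4%. Genes of ranks 11 to 189 took 33.7% ± 1.72 in C, 31.4% ± 0.945 in NP and 30.4% ± 1.56 in P, with the highest P library (P73, 31.7%) above the lowest C library (C5, 31.5%). No test was made of these sums, since the genes were selected on their counts.

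**Figure D2:**
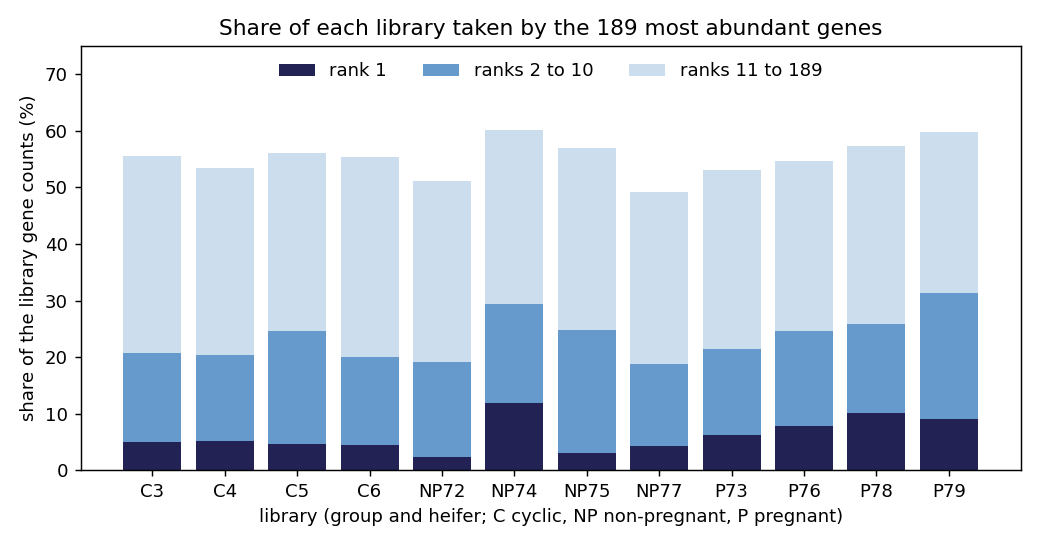
Share of each library's gene counts (%, stacked bars from 0) taken by the most abundant gene (dark), by ranks 2 to 10 (medium) and by ranks 11 to 189 (light) in the 4 C, 4 NP and 4 P libraries. The full bars run from 49.2% (NP77) to 60.1% (NP74), and the dark segment is largest in NP74 (11.9%).

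The gene of rank 1 (ENSBTAG00000033221) took from 2.36% to 11.9% of a library's counts. It held 4.97%, 5.25%, 4.60% and 4.38% of counts in C3, C4, C5 and C6. In NP72, NP75 and NP77 it held 2.36%, 2.98% and 4.26%, against 11.9% in NP74. It held 6.27%, 7.77%, 10.1% and 8.98% in P73, P76, P78 and P79, so that every P library was above every C library. Its group means were 4.80% ± 0.387 in C, 5.37% ± 4.42 in NP and 8.29% ± 1.66 in P (SD, n = 4), and the NP mean rested on NP74. On the normalized scale it had 57144, 59319, 55058 and 52058 CPM in C, 25387, 159145, 35227 and 45845 CPM in NP, and 71488, 86583, 126395 and 128550 CPM in P. Between P and C its edgeR log2 fold change was 0.89 (SE 0.47), which did not pass the quasi-likelihood test (Benjamini-Hochberg FDR = 0.387). Between P and NP it was 0.64 (edgeR quasi-likelihood FDR = 0.751), and without NP74 it was 1.56 (FDR = 0.012). NP74 was picked out by its likeness to P over the same genes, so leaving it out favours a difference between P and NP.

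The gene of rank 1 took the most counts in 9 of 12 libraries and that of rank 2 (ENSBTAG00000050597) in the other 3, which were C5, NP72 and NP75. Of the genes of ranks 1 to 10, 7 stood among a library's first 10 in every library, while 17 members did so in at least 1 library. For the first 50 places the numbers were 25 in every library and 102 in any, and for the first 100 places 47 and 164. The place within the first 189 of a library was held in every library by 97 of the 189 genes.

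None of the genes of ranks 2 to 10 was called in a comparison of groups. Rank 2 was close to level, at 48562 to 73936 CPM in C, 40495 to 75245 in NP and 57722 to 69060 in P, with an edgeR log2 fold change of P over C of 0.14 (SE 0.25). Rank 3 (ENSBTAG00000043546) spanned 7669 CPM (P73) to 55638 CPM (C5) and had its lowest and second lowest values in P73 (7669) and P78 (11580), beside 37429 and 48422 in P76 and P79. P libraries therefore lay both under and inside the range of the C libraries. Rank 6 was at 15993, 14383 and 21813 CPM in P73, P76 and P78 and at 75381 CPM in P79, so its P mean rested on 1 heifer. Rank 7 was at 19128, 19369, 22822 and 19294 CPM in C and at 13185, 12742, 13417 and 15546 CPM in P. These groups did not overlap, with an edgeR log2 fold change of -0.55 (SE 0.23, quasi-likelihood FDR = 0.264). Rank 8 reached 21614 and 21721 CPM in NP75 and NP77 but 6881 CPM in NP74, where P libraries held 8897 to 10282 CPM. Ranks 9 and 10 each had NP74 among their 3 highest libraries. Rank 9 had 26684 CPM in NP74, 23544 in P79 and 16370 in P73, and rank 10 had 15883 CPM in P78, 13993 in NP74 and 12656 in P79.

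**Figure D3:**
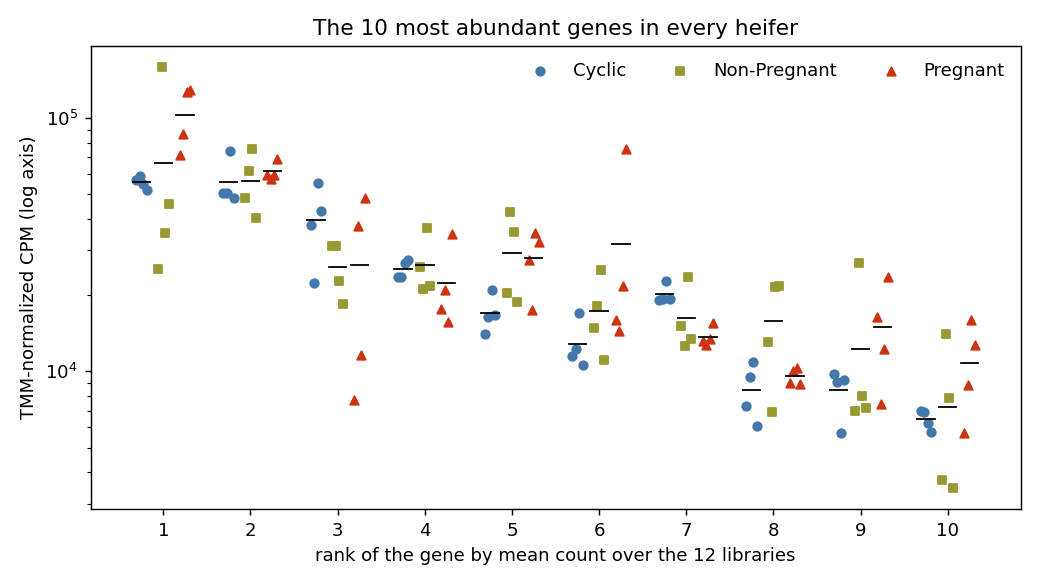
TMM-normalized CPM (log axis) of the 10 genes with the highest mean count in each of the 12 heifers, by group (circles cyclic, squares non-pregnant, triangles pregnant), with a bar at each group's mean of 4. The single high square of rank 1 is NP74 (159145 CPM), and the single high triangle of rank 6 is P79 (75381 CPM).

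Between P and C the mean share of rank 1 was higher in P by 3.49 percentage points and that of rank 6 by 1.33 points, while rank 3 was at 2.08% in P and 3.38% in C and rank 16 at 0.152% and 0.931%. The absolute differences of all 189 genes summed to 18.4 points, with 87 genes higher in P. Between P and NP the sum was 13.3 points, of which rank 1 made 2.91 points. Without NP74 the mean share of rank 1 in NP was 3.20% ± 0.967 (SD, n = 3), its difference was 5.09 points and the sum was 19.2 points. Between NP and C the sum over all 4 NP libraries was 12.9 points, led by rank 3 (2.21% in NP, 3.38% in C) and rank 5 (2.46% in NP, 1.46% in C). There rank 1 was higher in NP by 0.572 points. Without NP74 its NP minus C difference was -1.60 points (3.20% in NP, 4.80% in C), and the sum was 14.9 points. Rank 3 was then at 2.18% in NP and rank 5 at 2.21%. These sums include sampling error and were not tested.

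Counting error was small beside the spread between heifers for most of the 189 genes. The coefficient of variation (CV, the SD divided by the mean) of CPM within groups had a median of 27.3% over the 189 genes, where counting alone gives a median of 7.41%. Over the 1417 other genes tested the corresponding medians were 40.9% and 24.3%. Counting made up a median of 7.05% of the within-group variance of the abundant genes. It made up under 10% for 118 of them and over 50% for 5, those of ranks 58, 130, 156, 173 and 174. The median standard error of a log2 fold change of P over C was 0.28 for the abundant genes and 0.42 for the others.

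**Figure D4:**
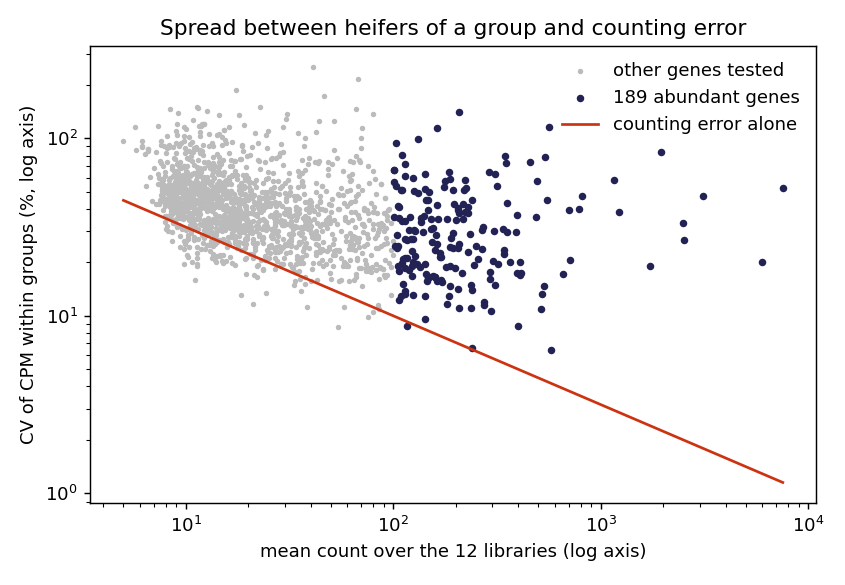
CV of CPM within groups (%, log axis) against the mean count over 12 libraries (log axis) for the 189 abundant genes (dark) and the 1417 other genes tested (grey), with the CV that counting alone gives as a line. Most dark points lie well above the line, with a median of 27.3% against 7.41% from counting.

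The ratio of the highest to the lowest CPM over the 12 libraries ran from 1.27 to 891, with a median of 2.55. It was under 2 for 60 genes, above 5 for 41 and above 10 for 13. The gene with the smallest CV over the 12 libraries was that of rank 15 (ENSBTAG00000002718), which lay between 4782 CPM (P76) and 6085 CPM (NP75). Next were the genes of ranks 130 and 61, at 1113 to 1552 CPM and 1962 to 2608 CPM. At the other end stood the gene of rank 76 (ENSBTAG00000004979), with counts of 3, 4, 18 and 1 in C3, C4, C5 and C6, of 8, 826, 33 and 7 in NP72, NP74, NP75 and NP77, and of 368, 62, 680 and 484 in P73, P76, P78 and P79. It was abundant in 4 libraries, NP74 and the P libraries other than P76, and near the floor of the table in the C libraries. Rank 107 had the same 4 libraries on top, at 4299 CPM in NP74 and 3776, 2546 and 7459 CPM in P73, P78 and P79, against 227 CPM in P76 and 284 to 710 CPM in the other 7 libraries. Rank 16 (ENSBTAG00000005809) divided the libraries otherwise, with 9481 to 23506 CPM in C3, C4 and C6 and 10084 CPM in NP77, but 309 CPM in C5 and 416 to 2486 CPM in the other 7 libraries.

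The comparison of P with C asks how the caruncle of a heifer carrying a conceptus differs from that of a heifer that was not bred. At an FDR under 0.05 and a change over 2-fold, 2 of the 189 abundant genes (1.06%) were called by the edgeR quasi-likelihood test, beside 0.187% of all 1606 genes tested, and both were lower in P. The gene of rank 34 (ENSBTAG00000002689) was at 7561, 8995, 3605 and 5452 CPM in C3, C4, C5 and C6 and at 933, 2343, 1637 and 809 CPM in P73, P76, P78 and P79. It was at 2000, 1625, 2586 and 2625 CPM in NP, and no library of either bred group reached the lowest C library. Its log2 fold change of P over C was -2.16 (SE 0.37, edgeR FDR = 0.0331), and the two-sided exact permutation test gave p = 0.0286, the smallest that 4 against 4 allow. That p follows from groups that do not overlap and adds no evidence for a gene named for its edgeR call. The gene of rank 94 (ENSBTAG00000030648) was at 6133, 2232, 2098 and 4607 CPM in C, at 577, 542, 797 and 917 CPM in NP and at 744, 1413, 659 and 734 CPM in P. All 8 bred heifers were again below all 4 cyclic ones, with a log2 fold change of P over C of -2.08 (SE 0.38, edgeR FDR = 0.0418). In this edgeR fit both calls lay near the threshold. They were lost when any 1 of C3, C4, C6, NP72, NP75, P73, P78 or P79 was left out, with FDR of 0.0583 to 0.167 for rank 34 and of 0.0655 to 0.212 for rank 94, although the log2 fold changes stayed between -2.51 and -1.95 and between -2.42 and -1.76 over all 12 omissions. Both calls were also lost with library totals alone as the scaling (FDR = 0.0633 for each), and limma-voom called rank 34 but not rank 94 (FDR = 0.0626). DESeq2 called both, with FDR of 1.77e-05 for rank 34 and 0.000115 for rank 94. So did edgeR with a filter of at least 1 CPM in 4 libraries (FDR of 2.75e-06 and 6.83e-06). In bulk tissue, fewer cells of a type and less RNA per cell cannot be told apart for either gene.

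The median log2 fold change was 0.000483 over the 189 genes and 0.0054 over all genes tested, with quartiles of -0.29 and 0.28 over the 189. At an unadjusted p under 0.05, 15 genes were higher (7.94%, beside 7.97% of all genes tested) and 19 were lower (10.1%, beside 8.03%). With library totals alone as the scaling, the split was 9 higher and 20 lower (together 15.3%, beside 14.7% of all genes tested). The groups did not overlap for 22 genes (11.6%, beside 8.22% of all genes tested), of which 7 were higher in P and 15 lower. Among those 22, the largest positive log2 fold changes were those of rank 76 (6.10, SE 1.63, edgeR FDR = 0.112), rank 1 and rank 144 (0.79, FDR = 0.17). In CPM, rank 76 had 454 to 7249 CPM in P and 11 to 174 CPM in C. Rank 144 was at 1326 to 1867 CPM in P and 747 to 1188 CPM in C. The most negative after ranks 34 and 94 was rank 67 (-1.72, edgeR FDR = 0.11), with 2552 to 3547 CPM in C and 574 to 1438 CPM in P. None of these passed the test. Rank 16 had a log2 fold change of -2.53 (SE 1.04, edgeR FDR = 0.264), but its C libraries ran from 309 to 23506 CPM and its groups overlapped. Without NP74, which is in neither group but enters the shared estimate of the spread, 8 of the 189 genes were called (4.23%, beside 2.31% of 1820 genes), 2 higher and 6 lower, rank 76 among the former (edgeR FDR = 0.0147). Without C5, 5 were called (2.65%, beside 0.572% of 1747 genes), all lower in P.

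**Figure D5:**
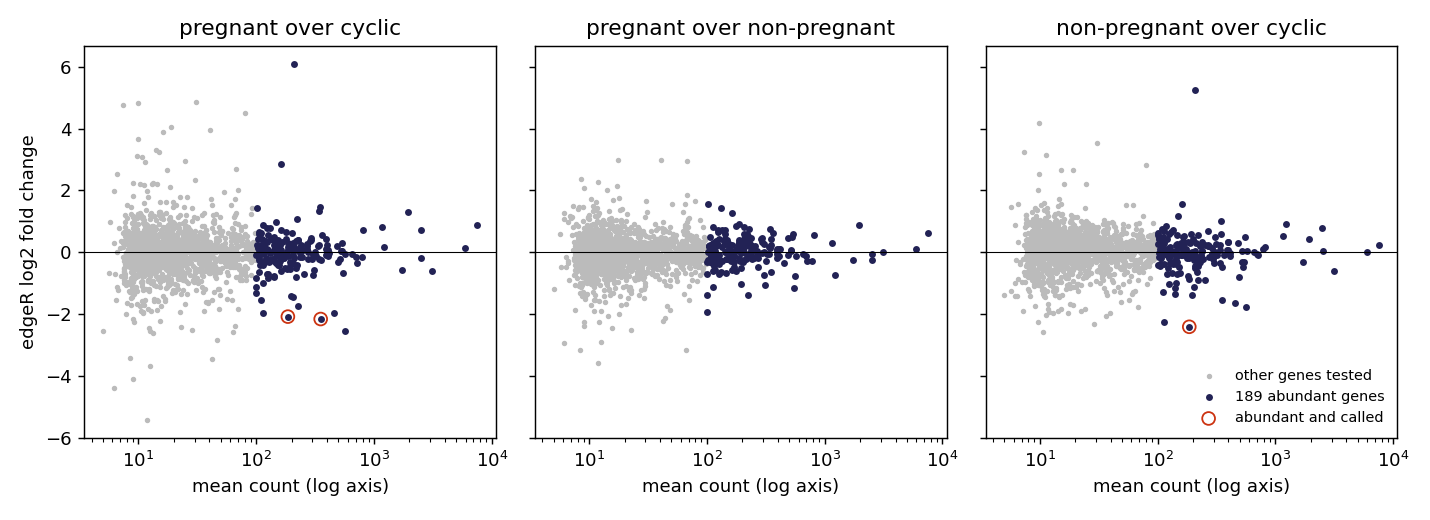
edgeR log2 fold change against mean count over 12 libraries (log axis) for P over C, P over NP and NP over C, with the 189 abundant genes dark, the other genes tested grey and called abundant genes circled. The circled points are ranks 34 and 94 for P over C and rank 94 for NP over C, and the high dark point is rank 76 (6.10 for P over C).

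The comparison of P with NP asks what differs between bred heifers with and without a conceptus. None of the 189 genes was called by the edgeR quasi-likelihood test, nor was any of the 1606 genes tested (0%), and the smallest FDR was 0.541. DESeq2 and limma-voom also called 0. At an unadjusted p under 0.05, 7 genes were higher in P (3.7%, beside 2.86% of all genes tested) and 11 lower (5.82%, beside 4.42%). Groups did not overlap for 4 genes (2.12%, beside 2.62%), namely rank 128, which was higher in P, and ranks 51, 161 and 174, which were lower. Rank 128 was at 1258 to 1627 CPM in P and 944 to 1247 CPM in NP, with a log2 fold change of 0.43 (SE 0.20, edgeR FDR = 0.654). Rank 161 was at 431, 740, 908 and 794 CPM in P and at 996, 922, 1108 and 1359 CPM in NP (-0.61, edgeR FDR = 0.654). Neither passed the test.

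The count of calls in P against NP depended on the filter and on NP74. With all libraries kept, no filter gave 8 calls among the 189 genes (4.23%, beside 0.346% of all genes tested). A filter of at least 1 CPM in 4 libraries gave 2 (1.06%, beside 0.21%). NP74 was picked out because it resembled the P libraries over these same genes. Leaving it out therefore favours calls between P and NP, so the calls without it are a description. When NP74 was left out, 7 of the 189 genes were called by edgeR (3.7%, beside 1.76% of 1820 genes), 4 higher and 3 lower in P. Those higher were ranks 1, 76, 98 and 135. Rank 76 had 67, 381 and 47 CPM in NP72, NP75 and NP77 and 9521 CPM in NP74, beside 3301, 454, 6788 and 7249 CPM in P, and its log2 fold change without NP74 was 4.85 (edgeR FDR = 0.0244). Those lower were ranks 17, 67 and 186. Rank 17 was at 10627, 8013 and 7646 CPM in NP72, NP75 and NP77, at 1740 CPM in NP74 and at 3866, 4042, 2176 and 2441 CPM in P. NP74 lay with or beyond the P libraries in both genes. Without NP74 and P76 together, an omission chosen after the values were seen, 17 of the 189 were called (8.99%, beside 5.25% of 1713 genes).

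The comparison of NP with C asks what differs between heifers that were bred, without a conceptus at collection, and heifers that were not. The edgeR quasi-likelihood test called 1 of the 189 genes (0.529%, beside 0.0623% of all genes tested), which was the only call over all 1606 genes. It was rank 94, lower in NP with a log2 fold change of -2.41 (SE 0.38, edgeR FDR = 0.0321). Its NP libraries, at 542 to 917 CPM, lay under its C libraries, at 2098 to 6133 CPM. The call was lost without any 1 of C3, C6, NP72, NP74, NP75, P73 or P79 (FDR of 0.0525 to 0.229), with log2 fold changes of -2.62 to -2.10 over all 12 omissions. The call was also lost with library totals alone (FDR = 0.0697) and in a fit of only the 8 NP and C libraries (FDR = 0.0848). It was kept with DESeq2 (FDR = 4.62e-06), limma-voom (FDR = 0.0327) and edgeR with a filter of at least 1 CPM in 4 libraries (FDR = 1.19e-06). Without NP74, 0 of the 189 genes and 0% of 1820 genes were called. Without C5, 3 were called (1.59%, beside 0.343% of 1747 genes), and without NP77, 2 were called (1.06%, beside 0.233% of 1719 genes). Rank 165, which was not called, followed the same division with 3172, 3028, 783 and 1860 CPM in C and 293, 300, 485 and 750 CPM in NP (-2.26, SE 0.43, edgeR FDR = 0.0984). Its P libraries were at 434 to 820 CPM, and P76, at 820 CPM, exceeded C5.

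In the same comparison 8 genes were higher in NP at an unadjusted p under 0.05 (4.23%, beside 3.3% of all genes tested) and 12 lower (6.35%, beside 5.04%). The groups did not overlap for 11 genes (5.82%, beside 4.73%), 6 higher and 5 lower in NP. The largest of the higher ones were rank 155 (1707, 1164, 1397 and 1594 CPM in NP, 747, 1019, 619 and 877 CPM in C), rank 136 and rank 147. Their log2 fold changes were 0.85, 0.74 and 0.61, with edgeR FDR of 0.34, 0.388 and 0.364. The median log2 fold change was -0.0054 over the 189 genes and 0.0571 over all genes tested. The comparisons with C share the C libraries and those with P share the P libraries, so the values of ranks 34, 94 and 165 in P and in NP are set side by side here and are not independent.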

How the data were processed

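Poly(A) RNA (TruSeq Stranded mRNA kit, single-end reads) was trimmed with Prinseq, aligned to ARS-UCD1.2 with HISAT2 and counted per gene with HTSeq by the authors. The strand setting is not given in the sources used here, so reads of genes that overlap on opposite strands may not have been told apart. Reads of near-identical genes may also not have been told apart, whatever the strand setting. The deposited table holds raw counts per gene, used as they stand for 12 libraries. The deposited tables of the authors' group comparisons hold mean normalized counts, log2 fold changes, standard errors, test statistics and p-values, and were not used.

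Genes were kept with filterByExpr (minimum count 10). The 12 libraries were fitted together with edgeR 4.0.16 (R 4.3.3; TMM, quasi-likelihood F test, no covariate), with Benjamini-Hochberg adjustment over all 1606 genes. The test was checked on simulated counts. CPM on the log scale used a prior count of 2. DESeq2 1.42.0, limma-voom (limma 3.58.1), other scalings, filters, thresholds and single-library omissions were alternatives. Named genes were the first 10 by mean count, every called member, per comparison the 3 largest rises and falls among members whose groups did not overlap, the genes beside the threshold and the 3 least and most variable. Ranks 17, 58, 98, 135, 156, 173 and 186 were named after their values were seen. The members and the gene lists were chosen with earlier results of these data known. Gene lists and cell type markers by symbol could not be applied, since 0 identifiers were paired with symbols, and no sequence was printed.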

Additional observations from a re-analysis of the deposited data

Results flagged for a closer look

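In groups of 4 heifers, a library was marked as far from the others when its gap to the nearest exceeded 0.829 of the group's range (Dixon's 95% critical value). Of 99 such tests over the named genes and the shares, 14 marked a library. Chance marks about 1 in 20 groups, a rate that does not apply to genes named for their high spread (ranks 16, 76 and 107) or for groups that did not overlap, and the tests share libraries.

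In C5 the first 10 genes took 24.65% of counts, against 20.08% to 20.7% in the other C libraries. The same library was high for rank 2 (73940 CPM against 48560 to 50730) and rank 7 (22820 against 19130 to 19370), and low for rank 9 (5732 against 9073 to 9727). C6 was high for rank 161 (1732 CPM against 1305 to 1349).

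NP74 was high for rank 1 (159100 CPM against 25390 to 45850), rank 9 (26680 against 6970 to 7967), rank 76 (9521 against 46.87 to 381) and rank 107 (4299 against 284.5 to 709.7). NP77 was high for rank 16 (10080 CPM against 415.7 to 1752).

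P76 was high for rank 94 (1413 CPM against 658.9 to 744.5) and low for rank 51 (1999 against 2592 to 2705) and rank 136 (842.2 against 1408 to 1517). P79 was high for rank 6 (75380 CPM against 14380 to 21810).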

How the results depend on the processing

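Called members in P against C numbered 2, and 0 with library totals as scaling, 8 with DESeq2, 1 with limma-voom, 17 with no filter, 15 with at least 1 CPM in 4 libraries, 4 with only the 8 libraries compared, 1 at a mean count of 200 or more and 1 at 100 or more in each group. Over all genes tested the shares called were 0% with library totals, 0.239% with DESeq2, 0.0623% with limma-voom, 0.981% with no filter, 1.19% with the 1 CPM filter and 0.532% with the 8 libraries. In P against NP (0 called) no filter gave 8 (0.346% of all genes) and the 1 CPM filter 2 (0.21%). In NP against C (1 called) library totals, the 8 libraries, the mean of 200 and the mean of 100 in each group gave 0, DESeq2 gave 4 (0.0315% of all genes), no filter 10 (0.333%) and the 1 CPM filter 6 (0.31%). Single omissions gave 0 to 8, 0 to 7 and 0 to 3 calls, highest without NP74, NP74 and C5. At these highest counts the shares were 4.23%, 3.7% and 1.59%, beside 2.31%, 1.76% and 0.343% of all genes tested. At an unadjusted p under 0.05 the counts of 34, 18 and 20 became 21 to 43, 9 to 43 and 14 to 33 under single omissions. The lowest counts were 11.1%, 4.76% and 7.41% of the 189, beside 10.9%, 4.85% and 5.52% of all genes tested. The highest were 22.8%, 22.8% and 17.5%, beside 18%, 18.3% and 13%. No filter gave 35 for P against NP (18.5%, beside 5.3% of all genes) and 38 for NP against C (20.1%, beside 5.23%). Chosen after seeing the data, leaving out heifers 74 and 76 gave 10, 17 and 0 calls (5.29%, 8.99% and 0%, beside 4.03%, 5.25% and 0% of all genes tested), with 55 genes at an unadjusted p under 0.05 for P against NP (29.1%, beside 21.3%) and 34 for NP against C (18%, beside 13.8%). Leaving out heifers 5, 74 and 76 gave 13, 19 and 8 calls (6.88%, 10.1% and 4.23%, beside 6.22%, 6.59% and 1.22%), with 54, 56 and 47 at an unadjusted p under 0.05 (28.6%, 29.6% and 24.9%, beside 24.1%, 24% and 20.6%). Where a count of calls moved, the cause was not tested, except that stricter member thresholds hold fewer genes. The share of library counts held by members was 65.82% at a mean of 50 or more, 43.21% at 200 or more and 50.68% at 100 or more in each group. Of the values of single named genes under these alternatives, 1839 kept their side of the threshold, 63 became called and 29 lost a call. Only calls of the main edgeR fit could be lost, 2 in P against C and 1 in NP against C. Most of the 1839 are therefore values called in neither fit, and their number does not show that the calls held. Each call in P against C was lost in 8 of 12 single omissions, and the call in NP against C in 7 of 12. A reversed direction was looked for only where either fit called the gene, and 0 were found. Changes of direction in genes that neither fit called count among the 1839. No paired analysis was possible because each library came from a separate heifer and the labels name no pairs. Depth limits few of the 189 genes, since counting made up under 50% of the variance of 184.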
